A study of Mus musculus with 48 samples.

Results

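The genes described here are 40 cell cycle and DNA replication genes, measured in mouse aorta of 3 knockout models. They were chosen by function, as 17 genes that act in DNA replication and 23 that act in mitosis. Of the 40, 38 had a probe set of their own on the array, out of 22180 genes with one, and all 38 (16 of replication and 22 of mitosis) were among the 15337 genes tested. Ccne2, a cyclin of the start of S phase, was listed only on a probe set shared with Ints8, and Ccnb1, a mitotic cyclin, was on no probe set with a single gene name. Neither is given a value.

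The study set knockout (KO) aorta against wild-type (WT) aorta in mice that lack a gene needed to build elastic fibres, shortly before and after birth. The Eln model lacks elastin, the fibre's core protein. The Efemp2 model lacks fibulin-4, which helps lysyl oxidase to reach elastin, and the Lox model lacks lysyl oxidase, which cross-links elastin and collagen. Ascending aorta (AA) and descending aorta (DA) were taken at day 17.5 of gestation (E17.5) and on postnatal day 1 (P1), which gave 24 groups of 2 arrays and 48 arrays in all. Eln and Efemp2 mice, KO and WT, were C57BL/6, and Lox mice were B6 albino, so that strain goes with model. Tissue of 8 mice was pooled for each array, and the labels name neither the alleles nor the sex or litter of the pooled mice. P values therefore measure the spread between these pools, and 2 arrays a group limit the precision.

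Cells that prepare to divide load the MCM helicase (Mcm2 to Mcm7) onto origins with the help of Cdc6, and cyclin E, Cdc45 and Gins1 help to start replication. Pcna then clamps the polymerase to DNA, while Rrm1, Rrm2 and Tyms supply nucleotides. Many of these genes are switched on by E2F factors late in G1. The mitotic genes follow later, when cyclins A and B act with Cdk1, kinesins and Aurora kinases build the spindle, and Bub1, Bub1b and Ttk hold back the Cdc20-driven exit until chromosomes are attached. Mki67 is present in cycling cells and absent from resting ones, and the growth of the aorta around birth comes with division of its smooth muscle cells.

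Promoter sequences are shown for 5 members whose KO values are described below. They were chosen after the values were seen. Each run is the 180 bases before the annotated start of the gene, read 5′ to 3′ on the strand of the gene, from the RefSeq annotation of GRCm38.p6. Capitals mark 3 motifs, on either strand: E2F forms (TTTCGCGC, TTTGGCGC or TTTCCCGC), the CCAAT box (CCAAT) and the CHR element (TTTGAA). E2F forms are known from genes of the G1/S transition, and CCAAT and CHR elements from genes of mitosis. Mcm2 lies at chr6:88898781-88898960 on the minus strand, Mcm5 at chr8:75109329-75109508 on the plus strand and Cdc6 at chr11:98907971-98908150 on the plus strand. Cdk1 lies at chr10:69352913-69353092 and Cdc20 at chr4:118437344-118437523, both on the minus strand.
Mcm2: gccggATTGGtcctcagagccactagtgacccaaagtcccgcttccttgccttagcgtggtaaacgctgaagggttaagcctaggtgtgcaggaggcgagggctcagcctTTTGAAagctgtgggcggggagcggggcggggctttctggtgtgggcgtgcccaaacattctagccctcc
Mcm5: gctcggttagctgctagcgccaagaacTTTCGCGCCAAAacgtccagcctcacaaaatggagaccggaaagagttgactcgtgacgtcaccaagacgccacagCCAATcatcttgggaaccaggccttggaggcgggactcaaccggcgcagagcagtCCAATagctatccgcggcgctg
Cdc6: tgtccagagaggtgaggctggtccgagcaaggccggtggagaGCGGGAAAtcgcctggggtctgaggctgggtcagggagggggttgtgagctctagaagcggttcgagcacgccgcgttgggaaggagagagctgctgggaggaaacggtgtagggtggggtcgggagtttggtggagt
Cdk1: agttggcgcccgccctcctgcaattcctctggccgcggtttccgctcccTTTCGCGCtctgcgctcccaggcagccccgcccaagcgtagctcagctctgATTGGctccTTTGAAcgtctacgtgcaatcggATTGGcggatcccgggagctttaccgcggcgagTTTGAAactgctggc
Cdc20: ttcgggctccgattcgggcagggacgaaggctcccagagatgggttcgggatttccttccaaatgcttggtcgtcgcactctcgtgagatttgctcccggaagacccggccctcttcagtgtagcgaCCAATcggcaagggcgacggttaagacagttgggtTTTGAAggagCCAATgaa
The Mcm2 window held a CCAAT box 175 bases and a CHR element 70 bases before the start, and none of the E2F forms. The Mcm5 window held a pair of overlapping E2F forms, 153 and 149 bases before the start, with CCAAT boxes at 77 and 22. The Cdc6 window held 1 E2F form, 138 bases before the start, and neither of the other motifs. Cdk1 carried all 3 motifs, with an E2F form at 131, CCAAT boxes at 80 and 48 and CHR elements at 71 and 15. Cdc20 carried CCAAT boxes at 53 and 8 and a CHR element at 18.

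A promoter window, taken as 250 bases before the start, was found for 33 of the 40 members. Mcm4, Gins1, Ccne2, Ccna2, Aurkb, Kif20a and Tpx2 were not matched. E2F forms stood in 4 of 14 replication promoters (28.6%), in those of Mcm5, Mcm6, Mcm7 and Cdc6, and in 1 of 19 mitosis promoters (5.26%), that of Cdk1. Over all 27025 genes with a window the share was 1.78%. CCAAT boxes stood in 9 of 14 replication promoters (64.3%), 17 of 19 mitosis promoters (89.5%) and 37.5% of all genes. CHR elements stood in 2 of 14 (14.3%), 7 of 19 (36.8%) and 18.3%, in that order, and all 9 members with a CHR element also held a CCAAT box, a pair found in 6.45% of all genes. A match shows that the letters are there, not that a factor binds.

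Values are log2 array signals. A level has the median of the tested genes on its own array subtracted, and is called a centred level. From each difference the median difference of the tested genes is subtracted; it comes with its standard error (SE) and a limma p adjusted over the 15337 genes by the Benjamini-Hochberg method. Rose, fell, higher and lower are used of genes past an adjusted p of 0.05. The array scale differed between sets of arrays. Median log2 signals of the tested genes lay at 5.56 to 5.95 in the Eln and Efemp2 arrays, at 4.89 to 5.00 in the Lox E17.5 arrays and at 6.37 to 6.85 in the Lox P1 arrays, and the labels do not say whether the stages were normalised together. Within Lox P1 the KO arrays had medians of 6.37 to 6.64 and the WT arrays of 6.58 to 6.85. In the Eln and Efemp2 P1 set, 4 WT arrays had raised background (the 2 of Eln DA, and replicate 2 of Efemp2 in AA and in DA). They had median signals of 4.35 to 4.37 on probe sets without a gene name, against at most 4.14 in the other 12. Eln itself was lower in KO in all 4 pairs of its model, with a mean difference of -6.18 (SE 0.22, limma adjusted p = 1.89e-19), and Lox in all 4 of its own, with -2.57 (SE 0.16, adjusted p = 3.77e-12), while Efemp2 was on no named probe set. Smooth muscle genes were high on every array, with Acta2 at centred levels of 5.79 to 6.93.

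Between E17.5 and P1 most of the members fell relative to the other genes in Eln, Efemp2 and Lox WT and fewer in Lox KO, the Lox falls only with the median shift of all genes taken off. Of the 38, 23 fell in Eln WT, 24 in Eln KO, 33 in Efemp2 WT, 31 in Efemp2 KO, 25 in Lox WT and 14 in Lox KO. With the shift left in, which was 1.62 in Lox WT and 1.42 in Lox KO, the Lox direction turned, to 36 and 38 members higher and 0 lower. The shares of all tested genes that fell, in the same order, were 23.6%, 18.3%, 25.4%, 16.7%, 20.3% and 16.6%. Ccnb2 rose in Eln WT, and Mcm7 and Birc5 rose in both Lox genotypes (with cyclic loess in place of the median, not in Lox KO). The shares of all genes higher were 22% in Eln WT, 21.2% in Lox WT and 17.3% in Lox KO. No member rose in Eln KO (17.3% of all genes higher), Efemp2 WT (27.6%) or Efemp2 KO (17.6%). The median member difference was -0.57, -0.67, -0.94, -0.88, -0.55 and -0.33. The array medians of the stages lay apart in Lox and Efemp2 and overlapped in Eln, and since no label says which arrays were normalised together, stage and array set cannot be told apart.

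**Figure D1:**
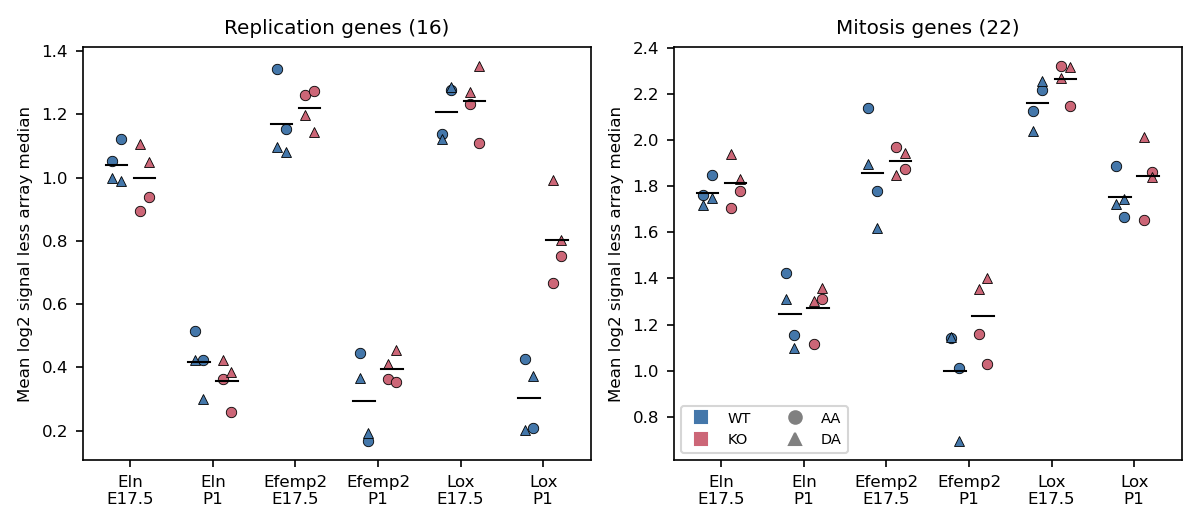
Mean centred level (log2 signal less the array's median) of the 16 replication genes and of the 22 mitosis genes on each of the 48 arrays, by model, genotype and stage. Circles are AA, triangles are DA and bars are means of 4 arrays. In each model the P1 arrays lie below the E17.5 arrays for both gene groups on this scale, on which the stage shift of each model is taken off (uncentred, the Lox members are higher at P1). At P1 the Lox KO replication means, 0.67 to 0.99, lie above the Lox WT means, 0.20 to 0.43.

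The mean over the 16 replication genes gave the same picture array by array. In Eln WT it lay at 0.99 to 1.12 on the 4 E17.5 arrays and at 0.30 to 0.51 on the 4 P1 arrays, and in Eln KO at 0.89 to 1.11 and 0.26 to 0.42. In Efemp2 WT it lay at 1.08 to 1.34 and 0.17 to 0.45, and in Efemp2 KO at 1.14 to 1.28 and 0.36 to 0.45. The Lox WT arrays gave 1.12 to 1.29 and 0.20 to 0.43, and the Lox KO arrays 1.11 to 1.35 and 0.67 to 0.99. The stages did not overlap in any of the 6 sets. The mitosis mean lay at 1.72 to 1.85 and 1.10 to 1.42 in Eln WT, and at 1.71 to 1.94 and 1.12 to 1.36 in Eln KO. It was 1.62 to 2.14 and 0.69 to 1.15 in Efemp2 WT, and 1.85 to 1.97 and 1.03 to 1.40 in Efemp2 KO. In Lox it was 2.04 to 2.25 and 1.67 to 1.89 for WT, and 2.15 to 2.32 and 1.65 to 2.01 for KO, again with no overlap of stages in these 6 sets.

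With the median taken off, 9 members fell in all 6 stage comparisons, as did 1.25% of all tested genes. They were Pcna, the sliding clamp, Cdc6, the origin licensing factor, Chek1, the replication checkpoint kinase, and Gins1, a part of the replicative helicase. The mitosis genes among them were Top2a, which untangles sister chromosomes, Mki67, the checkpoint kinases Bub1b and Ttk, and Nusap1, a spindle protein. With cyclic loess in place of the median 11 members did so, and 8 of the 9, all but Mki67, did with either. A further 10 members fell in 5 comparisons, 6 in 4, 4 in 3, 2 in 2 and 6 in 1, while Aurkb fell in none, at -0.38 to 0.11.

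The centred level of Pcna was 3.60 to 4.57 over the 24 E17.5 arrays (median 4.06) and 2.59 to 3.99 over the 24 P1 arrays (median 3.15). Cdc6 was -0.49 to 0.34 (median -0.11) at E17.5 and -1.82 to -0.54 (median -1.26) at P1, and Gins1 was -0.56 to 0.65 (median -0.10) and -2.21 to -0.63 (median -1.18). Cdc6 and Gins1 levels of the stages did not overlap in any of the 48 arrays, while Pcna levels did. Chek1 was -0.58 to 0.81 (median -0.00) at E17.5 and -1.47 to -0.26 (median -0.87) at P1. Top2a was 2.66 to 3.69 (median 3.01) at E17.5 and 1.19 to 3.22 (median 1.97) at P1, and Mki67 was 2.93 to 4.39 (median 3.42) and 2.10 to 3.53 (median 2.91). The Lox arrays held the highest Top2a and Mki67 levels of either stage, and in Efemp2 WT the Mki67 levels of the stages overlapped, at 2.93 to 3.44 and 2.56 to 2.96. Bub1b was 0.93 to 1.81 (median 1.39) at E17.5 and -0.12 to 1.12 (median 0.67) at P1. Ttk was 0.55 to 2.18 (median 1.48) and -0.29 to 1.36 (median 0.47), and Nusap1 was 2.01 to 3.71 (median 2.73) and 0.81 to 2.71 (median 1.57).

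Of the helicase genes, Mcm4 had the largest fall of any member in Eln WT, by -1.26 (SE 0.17, limma adjusted p = 1.2e-06), and in Efemp2 WT, by -1.64 (SE 0.17, adjusted p = 1.53e-08). It fell by -1.24 (SE 0.17, adjusted p = 3.38e-06) in Eln KO and by -1.36 (SE 0.17, adjusted p = 1.28e-06) in Efemp2 KO. In Lox it differed by -0.57 in WT, where it fell, and by -0.07 in KO, where it did not pass. Mcm5 fell most in Lox WT, by -1.40 (SE 0.20, adjusted p = 2.96e-06), and in Eln WT by -1.10 (SE 0.20, adjusted p = 7.08e-05), and did not pass in Efemp2 WT, at -0.31. Mcm6 fell by -1.06 in Eln WT (SE 0.16, adjusted p = 2.89e-06), and Mcm2 fell by -0.92 in Lox WT (SE 0.13, adjusted p = 1.53e-06). The helicase genes did not all move alike. Mcm2 and Mcm3 fell in 5 of the 6 comparisons and stood at -0.08 and -0.03 in Lox KO, whereas Mcm7 fell in Efemp2 KO alone, by -0.50, and rose in Lox WT by 0.49 (SE 0.14, adjusted p = 0.00539) and in Lox KO by 0.36 (SE 0.14, adjusted p = 0.0416). With cyclic loess Mcm7 rose in Lox WT, by 0.37 (limma adjusted p = 0.0141), and did not pass in Lox KO, at 0.27 (adjusted p = 0.0839).

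Among the origin factors, Cdc6 fell by -1.67 in Lox WT (SE 0.16, limma adjusted p = 2.15e-09), by -0.71 in Lox KO (SE 0.16, adjusted p = 0.000855) and by -1.22 in Eln KO (SE 0.16, adjusted p = 1.07e-06). Gins1 fell by -1.44 in Efemp2 WT (SE 0.18, adjusted p = 3.05e-07), -1.46 in Efemp2 KO (SE 0.18, adjusted p = 1.02e-06), -1.13 in Lox WT (SE 0.18, adjusted p = 1.42e-05), -0.99 in Lox KO (SE 0.18, adjusted p = 0.000121) and -1.11 in Eln KO (SE 0.18, adjusted p = 3.18e-05). Pcna fell by -1.06 in Lox WT (SE 0.14, adjusted p = 3.96e-07). These 3 genes fell in every model and both genotypes. Ccne1 (cyclin E1) and Cdc45 fell in 4 comparisons each. The nucleotide genes were less even, with Rrm2 falling in 5 comparisons, by -1.05 in Lox WT (SE 0.24, adjusted p = 0.000735) and -0.72 in Lox KO (SE 0.24, adjusted p = 0.0185). Rrm1 and Tyms fell in 3 each. E2f1, an activator of these genes, fell in Lox WT alone, at -0.80, and was at -0.34 to -0.08 in the other 5.

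Among the mitosis genes, Ccna2 (cyclin A2) fell by -1.34 in Efemp2 WT (SE 0.14, limma adjusted p = 1.03e-08) and by -1.10 in Efemp2 KO (SE 0.14, adjusted p = 1.01e-06), and by -0.40 in Lox WT, and was at -0.13 to -0.34 in the other 3 comparisons, where it did not pass. Top2a fell by -1.34 in Efemp2 WT (SE 0.18, adjusted p = 5.95e-07) and -1.27 in Efemp2 KO (SE 0.18, adjusted p = 4.84e-06). The spindle kinesin Kif23 fell by -1.27 in Efemp2 WT (SE 0.18, adjusted p = 1.88e-06) and was at 0.13 in Lox WT. Kif11, another spindle kinesin, fell by -1.09 in Efemp2 KO (SE 0.18, adjusted p = 3.89e-05). Nusap1 fell by -1.05 in Eln WT (SE 0.18, adjusted p = 1.88e-05), -1.30 in Eln KO (SE 0.18, adjusted p = 2.02e-06), -1.32 in Efemp2 WT (SE 0.18, adjusted p = 5.46e-07) and -1.11 in Efemp2 KO (SE 0.18, adjusted p = 2.12e-05). In Eln WT the kinetochore genes Cenpe and Cenpf stood among the largest falls, at -1.15 (SE 0.22, adjusted p = 0.000102) and -1.13 (SE 0.17, adjusted p = 4.86e-06), and Cenpe fell by -1.04 in Eln KO (SE 0.22, adjusted p = 0.000505). In Lox WT these 2 genes were at -0.22 and -0.16 and did not pass.

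Ttk had the largest member fall in Eln KO, next to that of Nusap1, at -1.30 (SE 0.15, limma adjusted p = 2.5e-07), and fell by -0.78 in Lox KO (SE 0.15, adjusted p = 0.000255). Mki67 fell by -0.78 in Lox KO (SE 0.14, adjusted p = 6.84e-05). The mitotic cyclin Ccnb2 moved in opposite directions. It fell by -0.71 in Lox KO (SE 0.15, adjusted p = 0.000364) and -0.80 in Lox WT, and rose by 0.43 in Eln WT (SE 0.15, adjusted p = 0.0161). With cyclic loess it also rose in Efemp2 WT, by 0.36 (adjusted p = 0.0273), and in Efemp2 KO, by 0.44 (adjusted p = 0.0116). Its levels were 2.46 to 2.70 on the Eln WT arrays at E17.5 and 2.82 to 3.23 at P1, against 3.53 to 3.82 and 2.64 to 2.96 on the Lox WT arrays, with no overlap of stages in either. Birc5 (survivin), a subunit of the chromosomal passenger complex, rose by 0.64 in Lox WT (SE 0.16, adjusted p = 0.00223) and 0.47 in Lox KO (SE 0.16, adjusted p = 0.025), and fell by -0.49 in Efemp2 WT. Cdk1, Cdc20 and the mitotic kinase Plk1 fell in Efemp2 WT alone, at -0.89, -0.42 and -0.81, and Aurka fell in the 2 Efemp2 comparisons. With cyclic loess in Efemp2 WT, Cdk1 was at -0.48 (limma adjusted p = 0.0035) and Plk1 at -0.39 (adjusted p = 0.0347). Cdc20 and Birc5 did not pass there, at 0.008 and -0.08. In that setting Cdk1 rose in Eln WT by 0.38 (adjusted p = 0.0183) and in Eln KO by 0.40 (adjusted p = 0.0164). Cdc20 rose in Eln KO by 0.56 (adjusted p = 0.00495). Birc5 rose there in Lox WT by 0.47 (adjusted p = 0.00705) and in Eln WT by 0.34 (adjusted p = 0.0429). It did not pass in Lox KO, at 0.31 (adjusted p = 0.082). Of the rest, with the median taken off, Cdca8 and Bub1 fell in 5 comparisons, Prc1 and Tpx2 in 4 and Kif20a in 3.

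**Figure D2:**
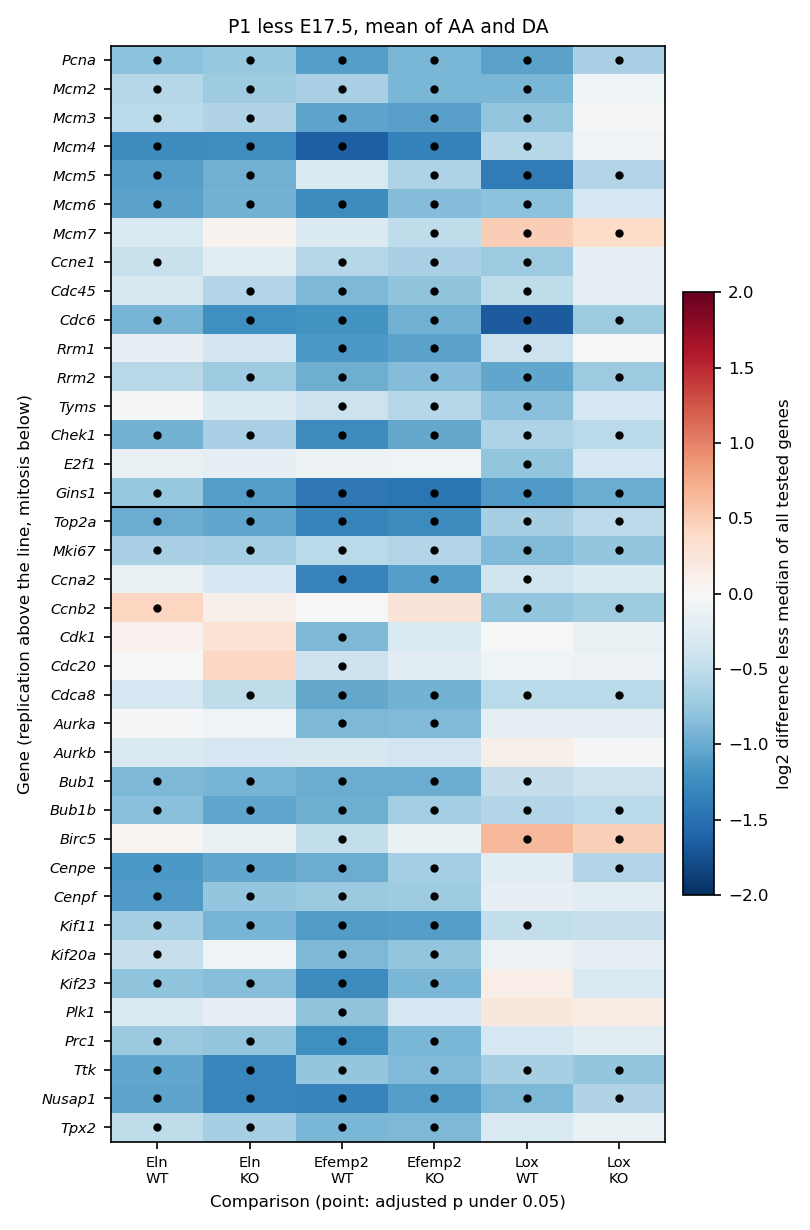
P1 less E17.5 difference (log2, less the median of all tested genes) of the 38 members, one row a gene, in WT and KO of each model, with points where the limma adjusted p is under 0.05. Most cells are negative in the 6 columns. The Lox columns hold 25 (WT) and 14 (KO) falls on this scale and none with the median left in, where 36 and 38 members rise along with the shift of all genes.

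The median stage difference of all genes varied with signal level. Among all tested genes at a mean log2 signal of 7 to 8 and 8 to 9, where 12 and 6 members lie, the median difference was -0.38 and -0.39 in Eln WT and -0.46 and -0.49 in Efemp2 WT, and 0.14 and 0.07 in Lox WT. At 5 to 6, with 6 members, it was 0.01, 0.04 and 0.03, and at 9 to 10, with 2 members, -0.28, -0.29 and -0.10, in Eln WT, Efemp2 WT and Lox WT. With a smooth trend over level taken off, 17, 23, 26, 28, 27 and 18 members fell, and with cyclic loess 18, 24, 28, 28, 28 and 24, in the order Eln WT, Eln KO, Efemp2 WT, Efemp2 KO, Lox WT and Lox KO. Of all genes 20.8%, 18.8%, 20.4%, 16.1%, 20.5% and 16.6% fell with cyclic loess. The array background as a covariate left 6, 22, 24, 22, 11 and 5 members. No share of all genes is given for the trend or the covariate, so those counts cannot be set against it. Leaving out single arrays gave 8 to 16 falls in Lox KO.

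Other genes of the cycle, in lists chosen by function, were also lower in part, on the same scale, on which 23.6%, 18.3%, 25.4%, 16.7%, 20.3% and 16.6% of all genes fell. Of 26 other replication fork and origin genes, 14, 13, 18, 18, 15 and 6 fell in the same order of comparisons, and at most 1 rose. Of 13 other nucleotide and repair genes of S phase, 8, 9, 10, 12, 6 and 5 fell and 0 rose. Of 34 other mitosis genes, 13, 16, 28, 30, 10 and 8 fell and at most 3 rose. The 6 of 26 and 8 of 34 in Lox KO lie near the 16.6% of all genes. Lig1, the ligase that joins replicated DNA fragments, fell in all 6, by -1.48, -1.43, -1.06, -0.98, -1.28 and -0.73. Skp2, which marks the CDK inhibitor p27 for breakdown, fell by -1.32, -1.03, -1.52, -1.42, -1.60 and -1.20, and Tfdp1, a partner of E2F factors, fell in 5 of 6, at -0.83 to -1.39, with -0.40 in Lox KO.

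The regulators upstream of S phase did not all fall. Of all genes, 23.6%, 18.3%, 25.4%, 16.7%, 20.3% and 16.6% fell in the same order of comparisons. The shares that rose were 22%, 17.3%, 27.6%, 17.6%, 21.2% and 17.3%. Of 16 cell cycle transcription factors, 10, 10, 10, 7, 6 and 1 fell, and 3 rose in Lox WT and 1 in Lox KO. Of 8 G1 cyclins and kinases, 5, 5, 8, 5, 5 and 2 fell and at most 1 rose. Ccnd1 (cyclin D1) fell in the Eln and Efemp2 comparisons, by -1.16, -0.88, -1.26 and -1.17, and was at 0.26 and 0.20 in Lox WT and KO, where it did not pass. Of 8 CDK inhibitors, 1 to 3 fell and 2 or 3 rose in each comparison, counts that lie around these shares. Cdkn1a (p21), which stops CDKs after p53 is active, rose in Eln KO by 1.43, in Efemp2 KO by 0.58, in Lox WT by 2.29 and in Lox KO by 2.19, and was at 0.51 and 0.19 in Eln WT and Efemp2 WT, which did not pass. Cdkn1c (p57) fell by -1.06, -1.14, -0.90, -1.05 and -0.62 and was at -0.31 in Lox KO, without passing. Of 11 p53 targets, 5, 4, 3, 2, 5 and 5 rose, among them Trp53inp1 in all 6, by 0.54 to 2.79. The 3 and 2 of 11 in Efemp2 WT and KO lie near the shares of all genes that rose.

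Marker genes of other tissue moved with stage. Of 6 brown fat genes, 6, 4, 5, 3, 4 and 2 rose, with medians of 1.81, 1.23, 1.62, 0.62, 1.16 and 0.70, and of 5 thymocyte genes 4, 3, 3, 1, 2 and 2 rose. Of all genes 22%, 17.3%, 27.6%, 17.6%, 21.2% and 17.3% rose. The 1 of 5 thymocyte genes in Efemp2 KO lies near its 17.6%. Over all arrays the brown fat mean ran from -0.51 to 3.36 and the thymocyte mean from -2.01 to 0.18. Their part in the stage differences was not tested. In pooled tissue, fewer dividing cells and less RNA per dividing cell cannot be told apart.

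Averaged over both locations and stages, KO aortas differed little from WT in these genes. No member passed in Eln (2.41% of all tested genes did) or Efemp2 (3.24%), and 1 passed in Lox (1.3%), Mcm2, which was 1.46-fold higher in KO. The 38 differences lay between -0.27 and 0.26 in Eln, -0.22 and 0.35 in Efemp2 and -0.08 and 0.55 in Lox, with medians of -0.03, 0.11 and 0.15, and 12, 34 and 34 of them were above 0.

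Mki67 had centred levels of 2.10 to 3.43 (median 3.20) on the 8 Eln WT arrays and 2.54 to 3.41 (median 3.12) on the 8 Eln KO arrays, a difference of 0.00 (SE 0.10, limma adjusted p = 0.995). Efemp2 gave 2.56 to 3.44 (median 2.94) in WT and 2.65 to 3.44 (median 3.13) in KO, 0.15 (SE 0.10, adjusted p = 0.514). Lox gave 3.12 to 4.39 (median 3.74) and 3.21 to 4.36 (median 3.88), 0.14 (SE 0.10, adjusted p = 0.714). The genotypes overlapped over most of their range in each model. Top2a differed by -0.03 (SE 0.13, adjusted p = 0.96) in Eln, 0.24 (SE 0.13, adjusted p = 0.379) in Efemp2 and 0.27 (SE 0.13, adjusted p = 0.418) in Lox. Pcna differed by -0.09 (SE 0.10, adjusted p = 0.783), 0.15 (SE 0.10, adjusted p = 0.488) and 0.30 (SE 0.10, adjusted p = 0.14). Over these arrays, which hold both stages, Top2a ran from 1.19 to 3.69 and Pcna from 2.59 to 4.57, and the genotypes overlapped in each model. Mcm2 differed by -0.04 (SE 0.09, adjusted p = 0.918) in Eln and 0.01 (SE 0.09, adjusted p = 0.978) in Efemp2. In Lox its levels were -0.47 to 0.81 (median 0.08) in WT and 0.37 to 1.14 (median 0.53) in KO, a rise of 0.55 (SE 0.09, adjusted p = 0.000518). That count of 1 for Lox became 4 with the arrays of Lox alone and 5 without the 4 arrays of raised background.

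Related genes outside the 40 showed few calls in the same averages. In Eln KO, Clspn, a checkpoint partner of Chek1, rose by 0.46 (SE 0.11, limma adjusted p = 0.0172) and Cdkn1a by 0.60 (SE 0.16, adjusted p = 0.0329). In Efemp2 KO, Cdkn1a rose by 0.62 (SE 0.16, adjusted p = 0.0236), E2f4 by 0.47 (SE 0.11, adjusted p = 0.0103) and Anln, a cytokinesis protein, by 0.46 (SE 0.11, adjusted p = 0.0173). In Lox KO, Trp53inp1 fell by -0.76 (SE 0.13, adjusted p = 0.000959), and Cdkn1a was at -0.04. These were 2 of the 116 pathway genes tested in Eln, 3 in Efemp2 and 1 in Lox, against 2.41%, 3.24% and 1.3% of all tested genes. The counts do not exceed these shares.

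Taken pair by pair, KO and WT differed in 7 of the 456 combinations of 38 members and 12 pairs, all higher in KO and all at P1. No member passed at E17.5, where the shares of all genes that did were 0.13% in Eln AA, 0.0522% in Eln DA, 0.645% in Efemp2 AA, 0.0391% in Efemp2 DA, 0.0261% in Lox AA and 0.013% in Lox DA. At P1 no member passed in Eln AA (1.86% of all genes) or Efemp2 AA (2.63%). There were 3 in Eln DA (15.8%), 2 in Efemp2 DA (0.985%), 1 in Lox AA (0.391%) and 1 in Lox DA (0.235%). The median member differences ran from -0.12 in Eln AA at P1 to 0.34 in Efemp2 DA at P1 and 0.31 in Lox DA at P1. With no median taken off 13 combinations passed, and with the trend over level taken off 3.

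**Figure D3:**
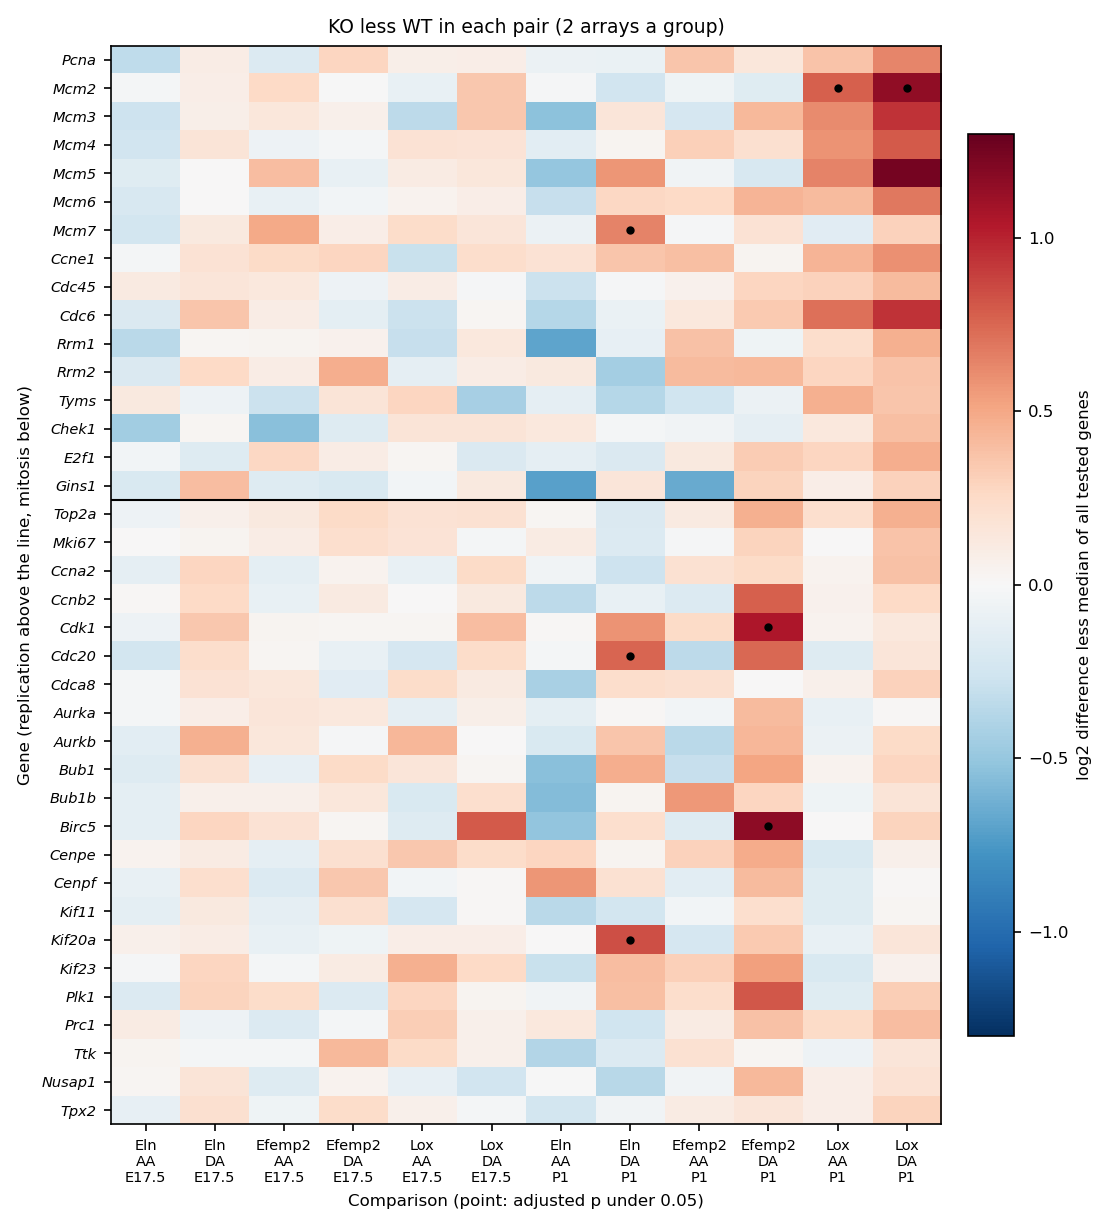
KO less WT difference (log2, less the median of all tested genes) of the 38 members, one row a gene, in the 12 pairs of model, location and stage, with points where the limma adjusted p is under 0.05. The 7 points lie in P1 columns, with Mcm2 in both Lox pairs.

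In the descending aorta of newborn Eln mice, Kif20a, a kinesin of cytokinesis, had centred levels of 0.46 and -0.05 in WT and 1.13 and 0.96 in KO, 1.79-fold higher (0.84, SE 0.20, limma adjusted p = 0.0048). Cdc20 had 1.15 and 1.03 in WT and 2.03 and 1.67 in KO, 1.69-fold higher (0.76, SE 0.25, adjusted p = 0.0338). Mcm7 had -0.25 and -0.11 in WT and 0.54 and 0.39 in KO, 1.56-fold higher (0.65, SE 0.20, adjusted p = 0.0227). The KO arrays lay above the WT arrays for all 3 genes. They were picked for passing in this same pair, and no share of all genes is given, so that separation adds nothing. With cyclic loess Kif20a and Mcm7 passed, Cdc20 did not (0.50, adjusted p = 0.154), and Ccna2 was lower in KO (-0.51, adjusted p = 0.0452), where it was at -0.26 with the median taken off. Both WT arrays of the pair were among those of raised background, 15.8% of all genes passed, and a shift of 0.27 was taken off. Of the related genes, Cdkn1a rose by 1.25 (SE 0.32, adjusted p = 0.00721), Rbl2 by 0.97 (SE 0.31, adjusted p = 0.0282), Foxm1 by 0.51 (SE 0.18, adjusted p = 0.0484), Clspn by 0.75 (SE 0.23, adjusted p = 0.0201) and Brca1 by 0.74 (SE 0.21, adjusted p = 0.0153). Fancd2 fell by -0.89 (SE 0.21, adjusted p = 0.00357) and Pola1 by -0.63 (SE 0.21, adjusted p = 0.0342).

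In the descending aorta of newborn Efemp2 mice, Birc5 had centred levels of 0.61 and 0.56 in WT and 1.70 and 1.79 in KO, 2.23-fold higher (1.16, SE 0.23, limma adjusted p = 0.00937). Cdk1 had 2.33 and 1.35 in WT and 2.90 and 2.88 in KO, 2.07-fold higher (1.05, SE 0.26, adjusted p = 0.0363). The lower WT value of Cdk1 came from an array of raised background. In the ascending aorta of the same stage the genotypes overlapped for both, with Birc5 at 1.35 and 1.03 in WT and 0.82 and 1.20 in KO, and Cdk1 at 2.56 and 1.98 in WT and 2.52 and 2.47 in KO. All 22 mitosis differences of the DA pair were above 0, with a median of 0.42, against 0.20 for replication. All genes of like level had medians of 0.11 to 0.19 there, and with cyclic loess 19 of 22 mitosis differences were above 0, with medians of 0.28 for mitosis and 0.10 for replication. Cks2, a small partner of Cdk1, rose by 1.46 (SE 0.35, adjusted p = 0.034) and E2f4 by 0.90 (SE 0.22, adjusted p = 0.0355) there. Ucp1, the defining gene of brown fat, fell by -3.45 (SE 0.83, adjusted p = 0.0342) in the same pair, where the 6 brown fat genes had a median of -1.07 and the 6 macrophage genes one of 0.49. Their part in the result was not tested.

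KO and WT were also compared at each stage over both locations, a comparison added after the pairs had been seen. At E17.5 no member passed in Eln (0.235% of all genes), Efemp2 (0.789%) or Lox (0.124%). At P1 none passed in Eln (6.63%), and 1 in Efemp2 (5.4%), Cdk1, at 0.65 (SE 0.18, limma adjusted p = 0.029), which did not pass, among other settings, with the replicate block, with the trend over level taken off or without the 4 arrays of raised background. In Lox 7 passed (1.83%), all of them replication genes and all higher in KO.

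The 7 were the helicase genes Mcm2, Mcm3, Mcm4 and Mcm5, the licensing factor Cdc6, the clamp Pcna and cyclin E1 (Ccne1). They made up 7 of 16 replication genes, against 0 of 22 mitosis genes. The median difference was 0.46 for replication and 0.09 for mitosis. For 12 of 16 replication genes and 1 of 22 mitosis genes all 4 KO arrays lay above all 4 WT arrays, as they did for 8.88% of all genes.

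Mcm2 had centred levels of -0.30 and -0.46 in WT AA, -0.47 and -0.39 in WT DA, 0.37 and 0.43 in KO AA and 0.85 and 0.57 in KO DA, 1.96-fold higher in KO (0.97, SE 0.13, limma adjusted p = 1.78e-05). Mcm5 had -0.38 and -0.40 in WT AA, -0.84 and -0.44 in WT DA, 0.15 and 0.37 in KO AA and 0.68 and 0.48 in KO DA, 1.93-fold higher (0.95, SE 0.20, adjusted p = 0.00859). Cdc6 had -1.53 and -1.82 in WT AA, -1.67 and -1.50 in WT DA, -1.01 and -0.89 in KO AA and -0.79 and -0.54 in KO DA, 1.78-fold higher (0.83, SE 0.16, adjusted p = 0.00282). In each of these genes the KO arrays stood clear of the WT arrays in both locations. Mcm2 also passed in each pair alone, at 0.78 in AA (1.71-fold, SE 0.18, adjusted p = 0.0416) and 1.16 in DA (2.23-fold, SE 0.18, adjusted p = 0.000739). In AA it did not pass with the replicate number as a block (adjusted p = 0.179).

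Mcm3 had 0.25 and -0.01 in WT AA, -0.04 and 0.17 in WT DA, 0.70 and 0.76 in KO AA and 1.17 and 0.80 in KO DA, 1.71-fold higher (0.78, SE 0.19, limma adjusted p = 0.0211). Mcm4 had 1.17 and 0.79 in WT AA, 0.83 and 1.14 in WT DA, 1.56 and 1.58 in KO AA and 1.83 and 1.69 in KO DA, 1.62-fold higher (0.69, SE 0.17, adjusted p = 0.0284). Neither gene overlapped between genotypes. Pcna had 3.36 and 3.13 in WT AA, 3.19 and 3.17 in WT DA, 3.57 and 3.68 in KO AA and 3.99 and 3.60 in KO DA, 1.42-fold higher (0.51, SE 0.14, adjusted p = 0.0459). Ccne1 had -0.03 and -0.20 in WT AA, -0.09 and -0.20 in WT DA, 0.38 and 0.28 in KO AA and 0.54 and 0.33 in KO DA, 1.44-fold higher (0.52, SE 0.14, adjusted p = 0.0496). These 2 lay just inside the threshold, and Mcm6, at 0.55 (SE 0.16, adjusted p = 0.0607), just outside it.

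The other replication genes differed by 0.42 (Tyms), 0.38 (E2f1), 0.36 (Cdc45), 0.35 (Rrm1), 0.33 (Rrm2), 0.27 (Chek1), 0.20 (Gins1) and 0.08 (Mcm7), none of which passed. Mki67 was 3.12 to 3.36 on the WT arrays and 3.21 to 3.53 on the KO arrays, and differed by 0.19. Top2a was 2.50 to 2.75 and 2.74 to 3.22, and differed by 0.34. The Mki67 and Top2a ranges overlapped, and neither gene passed. Ordered by difference among the 15337 genes, Mcm2 stood at place 83, Mcm5 at 90, Cdc6 at 119, Mcm3 at 150 and Mcm4 at 205. At E17.5 the same contrast gave 0.13 for Mcm2 and 0.09 for Pcna in Lox, neither past the threshold.

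**Figure D4:**
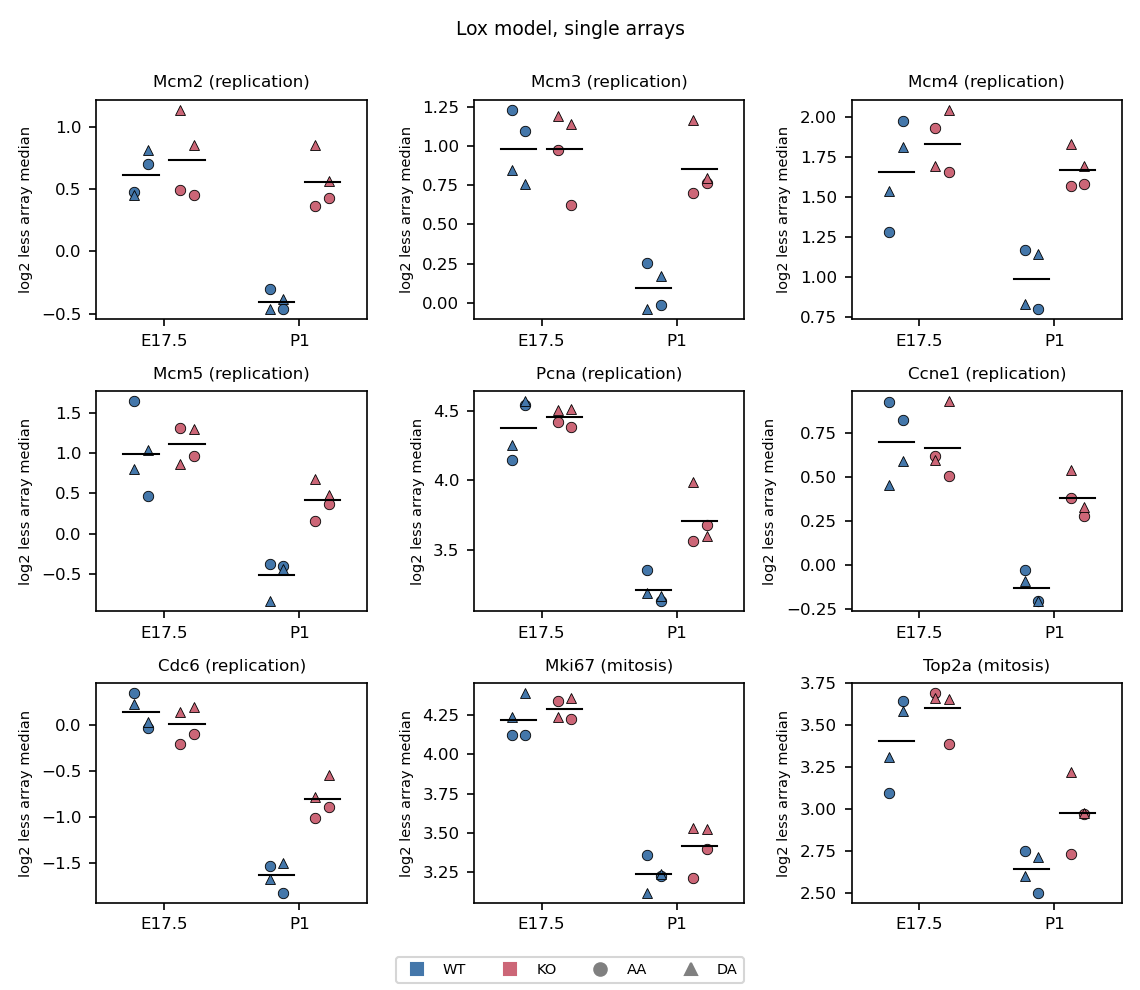
Centred level (log2 signal less the array's median) of 9 members on the 16 Lox arrays, by genotype and stage, with AA and DA marked and the scale of the arrays of a stage taken off (uncentred, the members are higher at P1 in Lox). At P1 the KO points of Mcm2, Mcm3, Mcm4, Mcm5, Pcna, Ccne1 and Cdc6 lie above all WT points, while those of Mki67 and Top2a overlap them.

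Mcm2 and Cdc6 passed in each of the 59 other settings tried for the Lox P1 comparison. Mcm5 did not pass in 3 of them, Mcm3 in 9, Mcm4 in 11, Pcna in 35 and Ccne1 in 40. The count of 7 became 3 with no median taken off, with a covariate for array background, and with AA and DA averaged first. The labels do not say whether AA and DA arrays of one number hold the same pooled mice, and the main comparison treats them as separate. The count became 2 without Lox WT DA replicate 1, Lox KO AA replicate 2 or Lox KO DA replicate 1, and 3 without Lox WT AA replicate 2, Lox WT DA replicate 2 or Lox KO AA replicate 1.

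Of the related genes at Lox P1, Lig1 rose by 0.57 (SE 0.14, limma adjusted p = 0.0268) and Pola1, a subunit of the priming polymerase, by 0.58 (SE 0.15, adjusted p = 0.0284), which made 2 of 26 other replication fork and origin genes, with a median of 0.24. None of 13 nucleotide and repair genes (median 0.20) and none of 34 other mitosis genes (median 0.09) passed. Myc, a growth factor-induced activator of the cycle, rose by 0.69 (SE 0.18, adjusted p = 0.0397), 1 of 16 transcription factors. The 8 G1 cyclins and kinases lay at 0.19 to 0.64 (median 0.34) without any passing, and none of 8 CDK inhibitors passed. Of 11 p53 targets, Plk2 rose by 0.61 (SE 0.15, adjusted p = 0.0285) and Trp53inp1 fell by -1.13 (SE 0.19, adjusted p = 0.000447).

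Cell markers differed between the same arrays. The mean of 6 macrophage genes was 1.77 to 2.00 in Lox KO and 1.35 to 1.56 in Lox WT at P1, with 1 of 6 passing (Adgre1, 0.73, SE 0.16, limma adjusted p = 0.0102) and a median of 0.41. The endothelial mean was 1.94 to 2.27 in KO and 2.23 to 2.49 in WT, and the brown fat mean -0.03 to 1.20 in KO and 0.60 to 2.10 in WT, with 0 of 6 genes passing. The smooth muscle mean overlapped, at 3.42 to 3.80 and 3.39 to 3.51. The macrophage means of KO and WT did not overlap, and their part in the replication result was not tested. The array median also differed between KO and WT there, with a shift of -0.19 taken off, and its part was not tested beyond the settings above.

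The Lox KO effect at P1 was set against those of the other models, a test also added after the values were seen. For Mcm2 the Lox effect exceeded the Eln effect by 1.07 (SE 0.18, limma adjusted p = 0.0025) and the Efemp2 effect by 1.07 (SE 0.18, adjusted p = 0.00259), the latter with an adjusted p of 0.053 once the replicate number was a block. Cdc6 exceeded Eln by 1.04 (SE 0.22, adjusted p = 0.016) but not, past the threshold, Efemp2, at 0.58 (adjusted p = 0.328). These were 2 and 1 of 38 members, against 1.3% and 0.183% of all genes. Mcm5 differed by 0.89 (adjusted p = 0.129) from Eln and 1.07 (adjusted p = 0.119) from Efemp2, and Mcm3 by 0.94 (adjusted p = 0.0667) from Eln. Beside 0.97, 0.95 and 0.83 in Lox, the P1 KO differences of Mcm2, Mcm5 and Cdc6 were -0.11, 0.05 and -0.21 in Eln and -0.10, -0.12 and 0.24 in Efemp2, which did not pass. With cyclic loess 6 members passed against Eln.

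The change of the KO effect between stages did not pass for any member in Eln (0.346% of all genes), Efemp2 (0.261%), Lox (0.0587%) or all models together (0.626%). In Lox the KO effect at P1 exceeded that at E17.5 by 0.84 for Mcm2 (SE 0.18, limma adjusted p = 0.0613) and by 0.96 for Cdc6 (SE 0.22, adjusted p = 0.13). The stage differences of these genes, with the median taken off, stood at -0.08 in Lox KO and -0.92 in Lox WT for Mcm2, and at -0.71 and -1.67 for Cdc6.

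Replication and mitosis genes were then set side by side in each pair. The median KO difference of the replication genes less that of the mitosis genes was 0.32 and 0.42 in the 2 Lox pairs at P1, and -0.22 to 0.12 in the other 10 pairs. Over both locations it was 0.37 in Lox at P1 and -0.05 at E17.5, -0.08 and -0.11 in Eln, and -0.03 and 0.00 in Efemp2. A related quantity, the median replication signal less the median mitosis signal of an array, had a pooled SD of 0.14 between replicate arrays (24 degrees of freedom). It is a gap of levels on single arrays, not the spread of the KO differences. Leaving out single arrays gave 0.30 to 0.43 for Lox at P1. The genes of a group move together and are not replicates, so no test is given. In the stage comparison the replication and mitosis medians were -0.57 and -0.58 in Eln WT, -0.68 and -0.67 in Eln KO, -1.01 and -0.90 in Efemp2 WT and -0.89 and -0.84 in Efemp2 KO. They were -0.81 and -0.32 in Lox WT and -0.35 and -0.29 in Lox KO, with the median of all genes taken off.

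**Figure D5:**
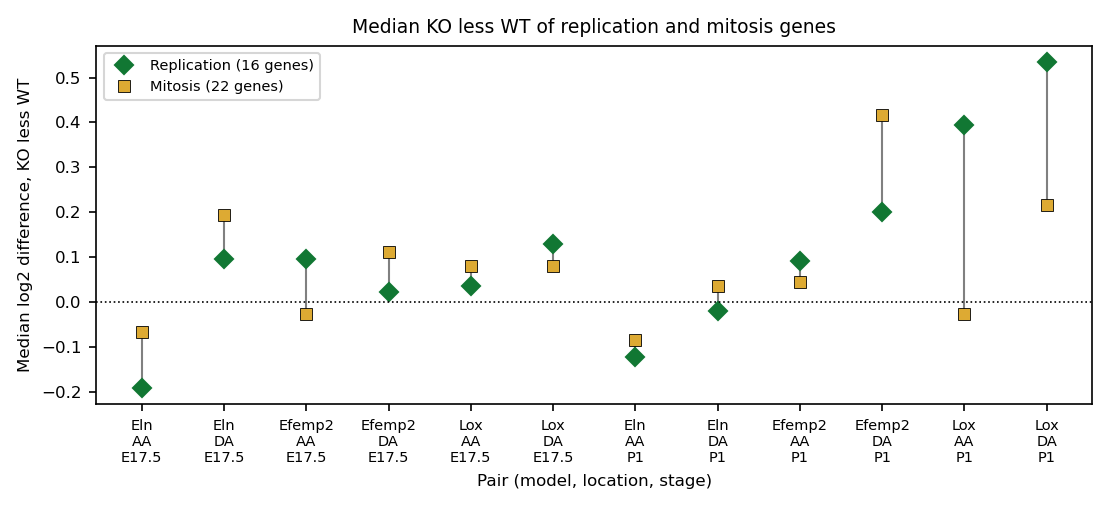
Median KO less WT difference (log2, less the median of all tested genes) of the 16 replication genes and of the 22 mitosis genes in each of the 12 pairs of model, location and stage. In the 2 Lox P1 pairs the replication median exceeds the mitosis median by 0.32 and 0.42, and in the other 10 pairs the gap is -0.22 to 0.12.

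Averaged over the 3 models and both stages, no member passed for DA less AA in WT, where 8.7% of all genes did, with differences of -0.28 to 0.16 and a median of -0.06. At P1 alone 1 passed in WT, Cdc20, lower in DA by -0.44 (SE 0.14, limma adjusted p = 0.0454), against 9.77% of all genes. In Eln WT at P1 alone 4 were lower in DA, Mcm5 (-0.79, SE 0.29, adjusted p = 0.044), Mcm3 (-0.73, SE 0.26, adjusted p = 0.0433), Cdc20 (-0.69, SE 0.25, adjusted p = 0.0407) and Mcm6 (-0.62, SE 0.22, adjusted p = 0.039), against 23.7% of all genes, and both DA arrays there were of raised background. In KO, over all models and stages, 1 passed, Birc5, against 6.42% of all genes, with differences of -0.10 to 0.35 and a median of 0.14. Birc5 levels in KO were 0.72 to 1.77 (median 1.32) on the 12 AA arrays and 1.39 to 1.94 (median 1.56) on the 12 DA arrays, 0.35 higher in DA (SE 0.09, limma adjusted p = 0.0167). In WT they were 1.03 to 1.66 (median 1.42) and 0.56 to 1.64 (median 1.29), at -0.25 (SE 0.09, adjusted p = 0.0942). The ranges of the locations overlapped in both genotypes. The KO effect was accordingly larger in DA than in AA for Birc5, by 0.59 (SE 0.13, adjusted p = 0.0413), 1 of 38 members and 0.424% of all genes, and this did not pass in 35 of 59 other settings, among them fits to the arrays of E17.5 or of P1 alone. Within the full set of arrays the P1 part of that contrast gave 0.78 for Birc5 (SE 0.19, adjusted p = 0.0426), the only member called there, against 0.75% of all genes. Of the related genes, Ccnd1 was higher in DA by 0.42 in WT (SE 0.13, adjusted p = 0.0451) and 0.69 in KO (SE 0.13, adjusted p = 0.00066). Cdkn2b (p15) was lower in DA by -0.48 (SE 0.10, adjusted p = 0.000972) and -0.33 (SE 0.10, adjusted p = 0.0286). Plk2 was higher in DA by 0.67 (SE 0.09, adjusted p = 2.72e-06) and 0.71 (SE 0.09, adjusted p = 1.05e-06), and Trp53inp1 lower by -0.35 (SE 0.11, adjusted p = 0.0341) and -0.38 (SE 0.11, adjusted p = 0.0259). Anln was lower in DA in WT, by -0.29 (SE 0.09, adjusted p = 0.0483).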

How the data were processed

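RNA of 48 pools of 8 aortas was amplified with NuGEN Ovation Pico and labelled with biotin, per the labels' protocols. The deposited values are log2 signals per probe set, made by the authors with RMA in Affymetrix Expression Console, per the submitters' processing notes, and the versions, the genome build and the arrays normalised together are not given in the sources used here. RMA shares 1 signal distribution within a run, so levels set across runs can shift together.

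Of 41345 probe sets, 23521 carried 1 gene symbol, 1814 several and 16010 none, by the platform annotation given with the data. The probe set of highest mean signal stood for each of 22180 genes (Rrm2 had 2 probe sets). The 15337 genes whose highest group mean was at least 4.94 were tested. That cutoff is the median of the single array values over all 23521 probe sets with 1 gene symbol. One linear model with a mean per group held all 48 arrays (limma 3.58.1, R 4.3.3, leaving 24 degrees of freedom). The median difference of the tested genes was taken off each contrast, eBayes gave moderated variances, and p values were adjusted by Benjamini-Hochberg. The code was tested on simulated data.

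The members and lists were chosen with earlier results of these data known. A member was described in full where it passed, or the 6 largest in a direction where more passed. Mki67, Top2a, Pcna and Mcm2 were given in every mean KO contrast, and at most 3 rises and 3 falls of a related list were named. Helicase, nucleotide, cyclin and other members or related genes named beyond this rule in the stage comparison, and the Eln and Efemp2 values set beside Lox, were chosen after their values were seen. The other settings were no filter, the mean over a gene's probe sets, cyclic loess, no median, trend and robust variances, a replicate block, fewer arrays, and each array left out in turn. The KO comparisons within a stage and between models, the background covariate (the median signal of odorant and pheromone receptor genes on an array), the fit without 4 arrays, the trend over level and AA and DA averaged first were added after the data were seen.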

Additional observations from a re-analysis of the deposited data

Results flagged for a closer look

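The KO effect at P1 was larger in Lox than in Eln for Mcm2, by 1.073 (SE 0.181, limma adjusted p = 0.0025), and for Cdc6, by 1.0396 (SE 0.224, adjusted p = 0.016), in a test of the difference itself. For Mcm2 it was also larger in Lox than in Efemp2, by 1.0681 (SE 0.181, adjusted p = 0.00259), which did not pass with the replicate block (adjusted p = 0.053). Mcm2 was higher in Lox KO in 4 of 4 arrays against every Lox WT array at P1, as were 8.88% of all genes. The KO effect on Birc5 was larger in DA than in AA over the 3 models, by 0.5888 (SE 0.133, adjusted p = 0.0413). This did not pass in most other settings, among them the replicate block (adjusted p = 0.0643) and the fit without the 4 arrays of raised background.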

How the results depend on the processing

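Each count of members past the threshold was repeated under up to 15 other settings and with each of the 48 arrays left out. With no filter the count was 8 for the stage in Lox KO, 1 for KO less WT in Eln at P1 and 4 in Efemp2 at P1. Cyclic loess gave 2 for the mean Lox KO effect, 1 for its change between stages, 1 for Eln at P1 and 6 for Lox less Eln at P1. With only the arrays of the model the mean Lox count was 4, its change between stages 1 and Efemp2 at P1 0. With only E17.5 arrays or only P1 arrays, DA less AA in KO and the KO effect in DA less that in AA gave 0 each. Trend and robust variances gave 2 for the mean Lox effect. With no median taken off the stage in Lox KO gave 38, Eln at P1 3, Efemp2 at P1 4, Lox at P1 3, Lox less Eln 4, Lox less Efemp2 2 and the 12 pairs 13. The trend over level gave 0 for the KO effect in DA less that in AA, 0 for Efemp2 at P1 and 3 for the 12 pairs. Without the 4 arrays of raised background the mean Lox count was 5, its change between stages 2, the KO effect in DA less that in AA 0, Eln at P1 1, Efemp2 at P1 0, Lox less Eln 1 and Lox less Efemp2 2. No Eln WT DA array is then left at P1, so 11 pairs were tested and Eln at P1 is AA alone. The background covariate gave 2 for the mean Lox effect, 6, 12 and 5 for the stage in Eln WT, Lox WT and Lox KO, 0 for the KO effect in DA less that in AA, 0 for Efemp2 at P1 and 3 for Lox at P1. AA and DA averaged first gave 0 for Efemp2 at P1 and 3 for Lox at P1. The cause of these changes was not tested. All 38 members pass the filter, so a count over those that pass is the same, and the change of the KO effect between stages could not be fitted from 1 stage.

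The replicate block gave 2 for the mean Lox effect, 1 for DA less AA in WT, 0 for the KO effect in DA less that in AA, 0 for Efemp2 at P1 and 0 for Lox less Efemp2, and every other count stayed within 1.5 times. Same-numbered KO and WT arrays of the 12 pairs correlated at -0.23 to 0.20 in their deviations. The labels do not say whether they share more than a number, and these correlations cannot decide it. Whether AA and DA arrays of one number hold the same mice is not given. Their deviations correlated at -0.25 to 0.36, and at -0.15 and -0.18 in Lox WT and KO at P1.

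Leaving out 1 array gave 0 to 1 for the mean Eln and Efemp2 effects, 1 to 2 for the mean Lox effect, 0 to 4 for DA less AA in WT and 0 to 1 in KO, 9 to 18 for the stage in Lox KO and 0 to 4 for the KO effect in DA less that in AA. It gave 0 to 1 for the change between stages in Efemp2 and in Lox, 0 to 2 for Eln at P1 and for Efemp2 at P1, 2 to 8 for Lox at P1 and 1 to 3 for Lox less Eln. The lone array of a group was then assumed to vary like the other groups.

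Directions were followed through the settings for members called in the other comparisons. For the stage they were followed for Mki67, Top2a, Pcna and Mcm2 only. Among these, the directions that turned were those of the Lox stage. Members not followed could turn too, such as Cdc20 in Efemp2 WT, at -0.42 with the median taken off and 0.008 with cyclic loess. With no median taken off, Mki67, Top2a, Pcna and Mcm2 stood at 0.74, 0.96, 0.56 and 0.71 in Lox WT and at 0.64, 0.90, 0.77 and 1.34 in Lox KO. In Lox KO, Mcm2 stood at 0.10 with no filter and Top2a at 0.043 with the covariate. The median replication less mitosis difference was followed through fewer settings than the counts, among them cyclic loess and single arrays left out. In those it moved by less than 0.14, the SD between replicate arrays of the gap in median signal. No value of it is given with the background covariate, the replicate block or only the arrays of the model. None is given without the arrays of raised background, so its stability there is not known.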
